A study of Mus musculus with 4 samples.

Results

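Genes of vesicle traffic were followed through a map of H3K9ac, the acetylation of histone H3 at lysine 9 that marks active promoters, in bone marrow of mice with a leukaemia transgene, with and without the Mx-Cre transgene. Members were taken by symbol from the deposited table: the Rab, Arf and Arl GTPases, Tbc1d proteins, Vps proteins, sorting nexins (Snx), syntaxins and VAMPs (the SNAREs), Sec proteins, the coat and adaptor subunits Cop and Ap1 to Ap4, and the tethers Exoc and Trappc. The rule took 217 of the 9615 rows, leaving out 1 matching gene, Ap1s3. These 217 rows carry 216 symbols, because Snx29 has 2 gene models. A symbol is no proof of a role in traffic: Vps72 encodes a subunit of chromatin remodelling complexes and Arl6ip4 a splicing-related protein.

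Both H3K9ac libraries came from bone marrow of mice with floxed Gfi1b alleles and the NUP98-HOXD13 fusion transgene, which models myelodysplastic syndrome and acute myeloid leukaemia. The library called WT by the submitters has no Mx-Cre, so it is wild type for the Cre transgene only and carries the leukaemia transgene too. The library called tg carries Mx-Cre, a recombinase under the interferon-inducible Mx1 promoter, which is also active outside blood cells. Each genotype is 1 library, the number of mice behind it and their age and treatment are not stated in the labels, and no difference below has a replicate check. The labels also list 2 rabbit IgG samples, which were not analysed here.

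Totals of 309649 reads in WT against 163712 in tg, derived from the step between the values, stood behind the scaling, a ratio of 1.89. They are not the sequencing depth of the libraries. Reads summed over the genes with recovered reads, 319167 in WT and 166296 in tg, exceed them, with shared probes counted more than once. A count of 0 leaves room for a level of 9.69 in WT and 18.3 in tg. Ptprc, the pan-leukocyte gene of CD45, held 84 reads in WT against 7 in tg. Gfi1b held 12 and 108 reads, and since probe positions are not given it does not check the genotype. Uty and Ddx3y, both Y-linked, held 28 and 0, and 22 and 1 reads. The labels used here do not give the sex of the mice, and a difference in sex between the libraries cannot be told apart from the genotype. Of the erythroid marker list, 17 of 25 genes were in the table. In tg 16 of them exceeded WT by 2-fold or more and 0 lay below it by as much, and the summed scaled level of the 14 with recovered reads was 843 in WT and 3524 in tg. Epor, Rhag, Alas2 and Hbb-b1 were at 0 reads in WT. Of 20 neutrophil genes 5 were in the table, all 5 at least 2-fold lower, with summed levels of 313 and 55.0. Of 13 monocyte and macrophage genes 9 were in the table, 5 lower and 1 higher, with summed levels of 2303 and 507. Megakaryocyte genes were mixed (5 of 12 in the table, 2 higher, 2 lower), and the B cell, T and NK cell and stromal lists had 2 of 8, 3 of 8 and 1 of 6 genes in it. Such shifts accompany every comparison below. Their part in the results was not tested, and in bulk marrow fewer cells of a type and less acetylation per cell cannot be told apart.

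Membrane traffic moves cargo between organelles in vesicles. Coat proteins bud the vesicle, Rab and Arf GTPases mark the membrane it comes from or goes to, tethering complexes catch it, and SNARE proteins on both membranes fuse it. Rab and Arf proteins are switched on by exchange factors and off by GTPase-activating proteins, among them the Tbc1d family. In marrow this machinery loads the granules of neutrophils, the dense granules of platelets and the phagosomes of macrophages, and it recycles the transferrin receptor of erythroblasts, while maturing red cells discard most of it.

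As a set, these genes lay close to equality, with a slight lean towards tg. By the deposited values, tg exceeded WT by 2-fold or more for 44 of 217 members (20.3%), where 16.5% of all genes did, and WT exceeded tg as much for 27 (12.4%), where 15.8% of all genes did. The remaining 146 were within 2-fold. The median log2 ratio was 0.14 over the members (SD 1.22) and 0.05 over all genes (SD 1.27). Each value is log2 of reads per probe scaled to 1000000, averaged over the gene's probes. A probe is a window in which the authors counted reads, of a length that is not given, so levels are not ranked between genes here. Whole reads were recovered for all 217 members, and the median member held 26 reads in WT (2 to 154) and 15 in tg (0 to 79). The deposited mean and SD give the counts of a gene's probes in each library but do not tie a probe across libraries, so probes are listed from lowest to highest count. Pairs of read counts below give WT first and tg second, and gene positions are those of the deposited table (mm10).

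Reads summed over a gene's probes also gave a fold with a 95% interval that covers counting error only. That interval lay above equality for 35 members (16.1%) against 12.9% of all genes with recovered reads, and below it for 23 (10.6%) against 12.7%. Shares this near to the background describe single genes and not the family. No member had 0 reads in WT over all its probes, and 3 had 0 in tg: Arl4c, Vamp3 and Rab32. Only 3 members lie on the X chromosome (Rab9, Snx12 and Trappc2), with log2 ratios of 0.33 to 0.70, and each of their intervals includes equality.

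**Figure D1:**
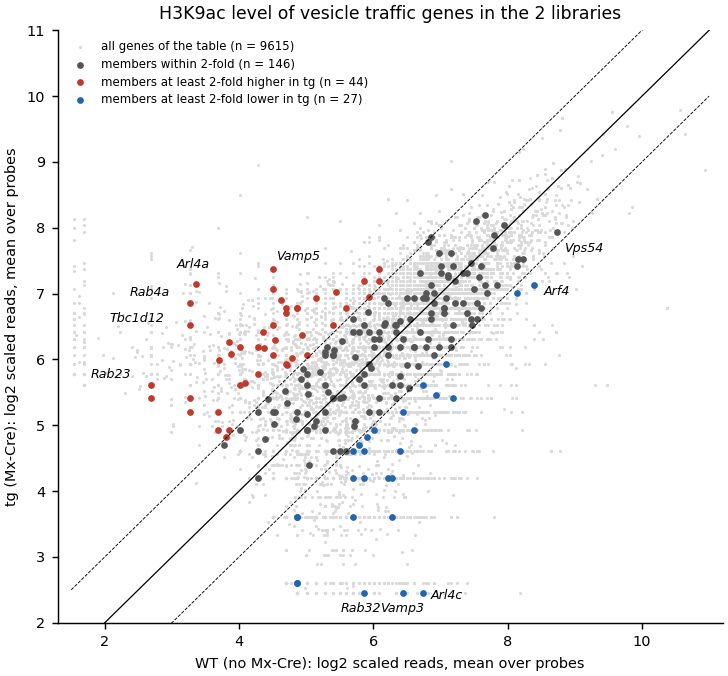
H3K9ac of every gene in WT (x axis) against tg (y axis), both as log2 scaled reads averaged over probes, with all 9615 genes in grey and the 217 members coloured by direction at 2-fold (dashed lines). The 44 red members sit mostly at low WT values, and Arl4c, Vamp3 and Rab32 lie at the bottom, where tg had 0 reads.

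Other genes of the same pathway, which the symbol rule does not take, were listed separately, and 128 of them were in the table (8 through an older symbol). Among these 14 (10.9%) were at least 2-fold higher and 19 (14.8%) lower, with a median log2 ratio of 0.04. Rabgap1l, a GTPase-activating protein gene for Rabs, was 20.8-fold higher on 3 reads in WT against 33 in tg (interval 6.53 to 106). Dennd1c, an exchange factor gene for Rab35, held 35 and 0 reads. It was 6.17-fold lower against a floor of 3 reads, and its interval starts at 4.76-fold lower. Rin3, which encodes an exchange factor for Rab5 proteins, was 5.64-fold lower on 64 and 6 reads (2.45 to 15.9). The lean towards tg seen in the members was thus not seen in this second list; the difference between both lists was not tested.

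RefSeq promoters (GRCm38.p6, 250 bases before to 50 after the start, read 5′ to 3′ on the gene's strand) were matched to 177 of the 217 members. Shown are those of the 2 highest and 2 lowest members among those with a promoter entry and a level of at least the all-gene median, Arl4a and Vamp5 (higher in tg) and Snx6 and Tbc1d5 (lower). Arl4c, the opposite case within the Arl4 family, was added after its value was seen. Capitals mark CpG dinucleotides. All 5 genes lie on the minus strand: Arl4a at chr12:40037938-40038237, Vamp5 at chr6:72380419-72380718, Snx6 at chr12:54795613-54795912, Tbc1d5 at chr17:51179303-51179602 and Arl4c at chr1:88702142-88702441.
Arl4a: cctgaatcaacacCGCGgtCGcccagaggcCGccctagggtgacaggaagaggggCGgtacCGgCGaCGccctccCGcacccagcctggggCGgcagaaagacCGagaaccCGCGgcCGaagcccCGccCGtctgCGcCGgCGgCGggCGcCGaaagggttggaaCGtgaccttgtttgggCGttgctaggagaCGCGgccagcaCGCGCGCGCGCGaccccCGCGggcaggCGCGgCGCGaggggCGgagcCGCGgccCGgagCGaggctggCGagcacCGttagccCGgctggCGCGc
Vamp5: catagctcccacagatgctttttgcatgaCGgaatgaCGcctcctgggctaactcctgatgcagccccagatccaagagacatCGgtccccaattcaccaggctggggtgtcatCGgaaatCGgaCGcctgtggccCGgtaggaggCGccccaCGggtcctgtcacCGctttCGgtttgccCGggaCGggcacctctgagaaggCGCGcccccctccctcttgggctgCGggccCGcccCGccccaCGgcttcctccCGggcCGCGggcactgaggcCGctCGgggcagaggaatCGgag
Snx6: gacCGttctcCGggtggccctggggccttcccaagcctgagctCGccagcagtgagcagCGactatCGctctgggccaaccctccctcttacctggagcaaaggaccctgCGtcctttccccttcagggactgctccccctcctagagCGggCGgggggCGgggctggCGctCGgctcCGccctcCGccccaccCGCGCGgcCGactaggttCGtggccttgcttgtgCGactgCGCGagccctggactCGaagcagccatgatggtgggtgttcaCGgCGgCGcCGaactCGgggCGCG
Tbc1d5: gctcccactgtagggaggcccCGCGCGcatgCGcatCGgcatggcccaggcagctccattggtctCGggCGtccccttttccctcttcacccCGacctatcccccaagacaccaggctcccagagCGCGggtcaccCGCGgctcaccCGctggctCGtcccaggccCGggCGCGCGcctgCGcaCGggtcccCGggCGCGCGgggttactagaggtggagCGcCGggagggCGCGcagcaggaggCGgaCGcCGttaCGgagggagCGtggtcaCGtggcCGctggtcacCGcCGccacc
Arl4c: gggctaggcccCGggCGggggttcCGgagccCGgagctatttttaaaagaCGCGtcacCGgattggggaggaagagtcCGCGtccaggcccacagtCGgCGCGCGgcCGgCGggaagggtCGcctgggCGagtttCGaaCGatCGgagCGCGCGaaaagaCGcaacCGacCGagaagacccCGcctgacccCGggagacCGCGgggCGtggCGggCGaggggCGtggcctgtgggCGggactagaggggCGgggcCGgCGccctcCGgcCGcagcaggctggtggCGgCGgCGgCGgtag

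All 5 are rich in CpG whether the gene was high or low in tg. Arl4a held 48 CpG and Arl4c 44 in 300 bases, and their observed-over-expected ratios were 1.11 and 1.12. Vamp5 held 25, Snx6 29 and Tbc1d5 37. Over all members the median ratio was 0.81 and the median GC content 63.0%, close to the 0.80 and 61.3% of all table genes with a promoter and above the 0.38 and 52.7% of all 32851 RefSeq promoters. For erythroid GATA factors the letters AGATAA and TGATAA were searched, and for the myeloid factor PU.1 GAGGAAGT, on both strands, with any overlap between matches counted. No printed promoter held any of them. GATA letters were in 12 of 177 member promoters (6.78%), in 9.36% of those of all table genes and in 18.6% of all promoters. They were in 0 of the 36 promoters of members at least 2-fold higher and in 3 of the 22 of members at least 2-fold lower. The PU.1 letters were in 4 member promoters (2.26%), against 3.18% of table genes and 3.20% of all promoters. By direction they were in 1 of the 36 promoters of the higher members and in 2 of the 22 of the lower ones. These 2, of Rab32 and Arl13b, also held GATA letters. These are descriptions of a 300-base window, and a match is not a bound site.

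Rab GTPases, which give each membrane its identity, were the largest class. Of 38 genes 10 were at least 2-fold higher and 4 lower (median log2 ratio 0.18). Class and complex counts here and below stand against 16.5% higher and 15.8% lower over all genes, and no class was tested. Rab4a, a GTPase of fast recycling from early endosomes (chromosome 8, 123805985 to 123835287), held 3 reads in WT against 19 in tg on its single probe. That is 12-fold higher after scaling, with an interval of 3.53 to 63.2. Its close paralogue Rab4b held 6 and 6 reads, a ratio of 1.89 whose interval includes equality, and it has the same values as a neighbouring gene model. Rab35, also of recycling endosomes, was 4.05-fold higher on 7 and 15 reads (1.56 to 11.8). In contrast, both genes of RAB11, the main GTPase of the slow recycling endosome, were lower: Rab11a held 58 and 16 reads (1.92-fold lower, 1.09 to 3.57). Rab11b held 42 and 10 (2.22-fold lower, 1.10 to 4.96). Recycling Rabs therefore did not share a direction.

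Among Rabs of the early secretory pathway, the Rab1 paralogues lay on opposite sides and the Rab2 paralogues on the same side. Rab1, which acts between the endoplasmic reticulum (ER) and the Golgi, held 87 reads in WT against 21 in tg and was 2.19-fold lower (1.35 to 3.72). Rab1b, its paralogue in the same step, held 18 and 24 and was 2.52-fold higher (1.31 to 4.93), so the 2 intervals do not overlap. Rab2a held 71 and 23 reads (1.63-fold lower, 1.01 to 2.74). Its paralogue Rab2b held 35 and 12, a log2 ratio of -0.73, and its interval includes equality. On the way out of the cell, Rab10, a GTPase of exocytic carriers, was 2.93-fold higher on 31 and 48 reads (1.83 to 4.76). Its lower probe count was 2 in WT and 10 in tg, and its higher one 29 and 38. Rab8a, Rab8b and Rab13, of the same branch of the family, held 33 and 20, 28 and 20, and 40 and 26 reads, with intervals that include equality. The values of Rab13 are also those of Rps27, a ribosomal protein gene.

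Rabs of lysosome-related organelles, the granules and dense bodies of pigment and blood cells, showed the widest spread. Rab32 (chromosome 10, 10545011 to 10558233) held 18 reads in WT against 0 in tg, 3.17-fold lower against a floor of 3 reads. Rab38, its closest relative and partner in the biogenesis of these organelles, held 12 and 26 reads and was 4.10-fold higher (2.0 to 8.92). Its probe counts were 2 and 10 in WT and 10 and 16 in tg. Rab7l1, also called Rab29 and of the same subfamily, held 24 and 2 reads, 6.34-fold lower (1.58 to 55.4). Rab27a, the GTPase of secretory lysosomes, had probe counts of 4 and 25 in WT and 5 and 7 in tg. Its deposited log2 ratio of 0.16 and its summed ratio of -0.35 differ in sign, and the interval includes equality.

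Endosomal Rabs were mostly near equality. Rab5a, Rab5b and Rab5c, of the early endosome, held 59 and 25, 36 and 17, and 20 and 13 reads, with log2 ratios of -0.32 to 0.30. Rab21 held 69 and 39 (ratio 1.07, 0.703 to 1.61) and Rab14 76 and 43 (1.07, 0.719 to 1.58). Rab22a was the exception among them, 1.94-fold lower on 44 and 12 reads (1.01 to 4.03). Rab7, of the late endosome, held 58 and 19 reads, and its interval includes equality (1.61-fold lower, 0.947 to 2.87). Rab6a, of Golgi retrograde traffic, held 50 and 26. Of the others beyond 2-fold, Rab23, a GTPase of ciliary hedgehog signalling, held 2 and 8 reads (7.57-fold higher, 1.51 to 73.1). Rab12, Rab37 and Rab40c held 13 and 15, 9 and 10, and 13 and 14 reads, and their intervals include equality. Rab24, linked to autophagy, was 1.95-fold higher on 35 and 36 reads (1.19 to 3.19), but these are also the values of its neighbour Prelid1.

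**Figure D2:**
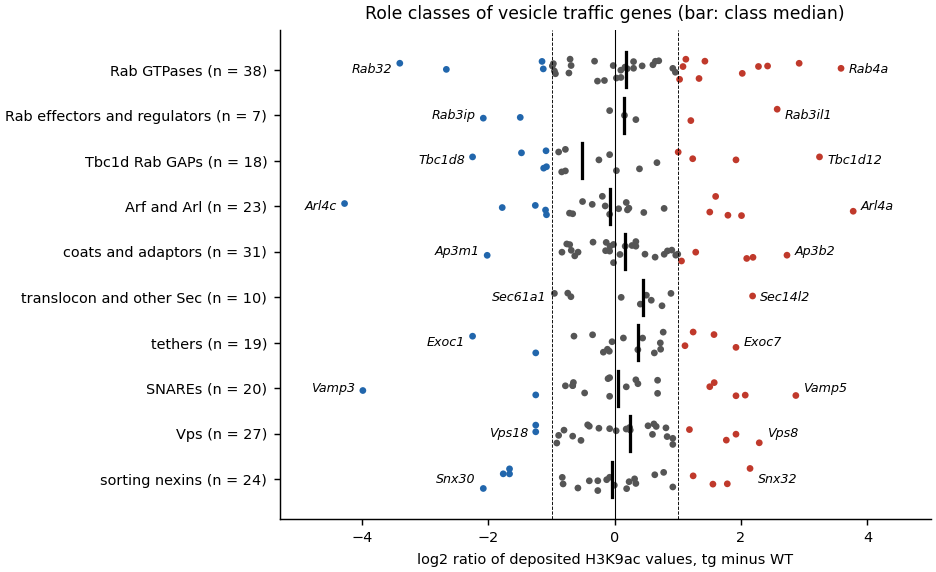
Log2 ratio of the deposited values, tg minus WT, for each of the 217 members (dots) in 10 role classes, with bars at class medians and dashed lines at 2-fold. Every class but the translocon group has members beyond 2-fold on both sides, and the highest and lowest gene of each class is named.

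The proteins that control Rabs were thinly covered. Among 7 effectors and regulators, 2 were at least 2-fold higher and 2 lower. Rab3il1, an exchange factor gene for Rab8, held 7 reads in WT against 22 in tg, 5.94-fold higher (2.45 to 16.5). Rab3ip, whose protein Rabin8 has the same activity, held 16 and 2, so these 2 exchange factor genes lay on opposite sides. The interval of Rab3ip includes equality (4.23-fold lower, 0.994 to 37.9). The 2 subunits of the Rab3 GTPase-activating complex, Rab3gap1 and Rab3gap2, held 16 and 3, and 25 and 21 reads. Neither interval excludes equality, and the log2 ratios were -1.50 and 1.20.

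Tbc1d genes, which encode GTPase-activating proteins that switch Rabs off, had the lowest class median (-0.52), with 4 of 18 at least 2-fold higher and 5 lower. Tbc1d5, which shuts off Rab7 at the retromer, was 2.91-fold lower (1.93 to 4.52). Its probes held 10 and 144 reads in WT and 2 and 26 in tg, so that most of the difference in reads lay in the highest counts. Tbc1d12, a Rab11-binding protein gene, held 3 and 15 reads on 1 probe and was 9.46-fold higher (2.68 to 51.0). Tbc1d15, another Rab7 regulator, held 33 and 8 reads, and its interval reaches just past equality (2.18-fold lower, 0.988 to 5.47). In the Tbc1d10 group, Tbc1d10b was 1.73-fold higher (1.11 to 2.68), whereas Tbc1d10a and Tbc1d10c held 18 and 9, and 16 and 4 reads, with intervals that include equality. Tbc1d2b was also 1.73-fold higher by summed reads (60 and 55, 1.18 to 2.54). Tbc1d22a held 44 and 13 reads, and Tbc1d4, the AKT substrate that controls glucose transporter vesicles, held 3 and 6 reads, and Tbc1d8 held 9 and 1.

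Arf and Arl GTPases recruit coats and other effectors to membranes, and by the deposited log2 ratio this class held both extremes of all members. Of 23 genes, 5 were at least 2-fold higher and 5 lower. Arl4c (chromosome 1, 88673125 to 88702221) held 33 reads in WT against 0 in tg. It was 5.82-fold lower against the floor, and its interval starts at 4.47-fold lower. Arl4c had the lowest log2 ratio of all members, -4.28. Arl4a (chromosome 12, 40005447 to 40038025) had the highest, 3.78. Its 3 probes held 0, 1 and 36 reads in WT and 13, 21 and 45 in tg, each higher in tg when taken in order. By summed reads it was 4.04-fold higher (2.70 to 6.14). Summed reads give most weight to the highest count, which differed least, whereas the deposited mean weights all 3 alike. The top rank of Arl4a held for the deposited ratio only. Rab4a stood above it by summed reads (log2 ratio 3.58 against 2.01) and under both pseudocounts (2.95 against 2.76, and 2.68 against 2.45). Arl4d, the third gene of the family, held 5 and 8 reads, and its interval includes equality (3.03-fold higher, 0.873 to 11.8). ARL4 proteins bring the cytohesin exchange factors of Arf6 to the plasma membrane.

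A second pair split likewise: Arl5a and Arl5b both act at the trans-Golgi, and Arl5a held 26 and 4 reads (3.44-fold lower, 1.19 to 13.5). Arl5b held 28 and 37 over 3 probes and was 2.50-fold higher (1.49 to 4.24). Among the Arf genes proper, Arf4 was 2.39-fold lower on 104 and 23 reads (1.51 to 3.94), values that it shares with a neighbouring gene model. Arf1, the GTPase that recruits the COPI coat to the Golgi, was 1.64-fold lower on 87 and 28 reads (1.06 to 2.61). Arf5 was 4.02-fold higher on 8 and 17 (1.64 to 10.8), while Arf2 held 6 and 9 reads and Arf3 26 and 12. Arf6, of the plasma membrane, held 94 and 50 reads when its probes are added (7 and 87 in WT, 5 and 45 in tg), and its interval includes equality. Arl1, of the trans-Golgi, held 35 and 9 reads and Arl13b, of cilia, 20 and 5, and both intervals include equality, as does that of Arl15 (44 and 32). The lysosomal pair Arl8a and Arl8b held 46 and 19, and 42 and 20 reads, with log2 ratios of -0.36 and -0.15.

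Coat and adaptor genes bud and load the vesicles, and of 31 of them 5 were at least 2-fold higher and 1 lower (median log2 ratio 0.17). In COPI, the coat of Golgi-to-ER vesicles, Copb1 was 2.43-fold higher on 21 and 27 reads (1.32 to 4.52). Copa was 1.78-fold lower on 54 and 16 (1.01 to 3.34), with the same values as its neighbour Ncstn, the nicastrin gene. The other COPI subunits Copb2, Cope, Copg, Copg2 and Copz1 had intervals that include equality. In COPII, the coat of ER exit, 0 of the 8 subunit genes among the members were beyond 2-fold in either direction. Sec24b held 46 and 24 reads and Sec23b 36 and 23, and the log2 ratios of the 8 ran from -0.76 (Sec24a) to 0.83 (Sec16a). In the second list, the COPII gene Sar1b had a log2 ratio of -1.08 on 24 and 6 reads, and its interval includes equality. Sar1a and Preb there had log2 ratios of -0.08 and 0.997.

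AP-3, the adaptor that sorts cargo to lysosome-related organelles, had subunit genes on both sides. Ap3m1 held 23 reads in WT against 3 in tg (4.05-fold lower, 1.22 to 21.1). Ap3s1 held 88 and 30 (1.55-fold lower, 1.01 to 2.43), values it shares with Atg12. Ap3b1, whose human counterpart is mutated in a form of Hermansky-Pudlak syndrome, was 2.63-fold higher (1.58 to 4.45). Its 3 probes held 2, 2 and 24 reads in WT and 7, 8 and 24 in tg. Ap3b2, the neuronal subunit gene, held 2 and 7 reads (6.62-fold higher, 1.26 to 65.3), and Ap3s2 18 and 14. The other adaptors were split as well: in AP-1, Ap1s1 was 4.26-fold higher on 8 and 18 reads (1.76 to 11.3), whereas Ap1g1 held 64 and 21 and Ap1b1 12 and 8. In AP-4, Ap4b1 held 36 and 38 reads (2.0-fold higher, 1.23 to 3.24) and Ap4s1 93 and 30 (1.64-fold lower, 1.08 to 2.56). These AP-4 values are those of the neighbours Dclre1b and Strn3 too. The 3 members of the endocytic adaptor AP-2 stayed within 2-fold. Of its subunit genes in the second list, Ap2a2 was 2.01-fold higher on 31 and 33 reads (1.20 to 3.40), with a deposited log2 ratio of 2.69. Ap2a1 held 13 and 9 reads, and its interval includes equality. Sec23ip, a COPII-binding protein gene, held 10 and 11 reads, and its interval includes equality.

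**Figure D3:**
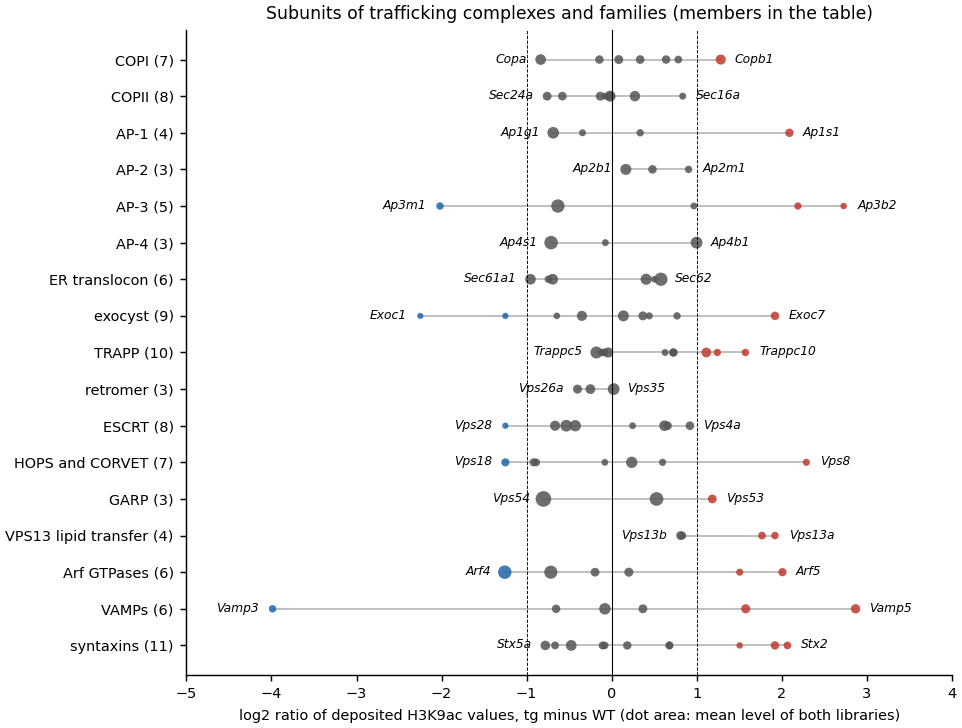
Log2 ratio of the deposited values, tg minus WT, for the subunit genes of 17 complexes and families, with dot area scaled to the mean level of both libraries and dashed lines at 2-fold. The members of COPII, AP-2 and retromer lie within 2-fold, while AP-3, the exocyst, HOPS and CORVET and the VAMPs have subunits beyond 2-fold on both sides. Subunit genes that the symbol rule does not take, such as Ap2a2 of AP-2, are not drawn. Of all 9615 genes, 6507 lie within 2-fold.

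Genes of the ER translocon, through which new secretory proteins enter the pathway, were within 2-fold for all 6 members. Sec61a1, the channel subunit, was 1.94-fold lower on 55 and 15 reads (1.08 to 3.69). Sec62 held 57 and 45, Sec63 52 and 17 and Sec61g 40 and 28, and these 3 intervals include equality. The signal peptidase gene Sec11a was 1.83-fold higher on 31 and 30 reads (1.07 to 3.13), with probe counts of 6 and 25 in WT and 6 and 24 in tg. Sec14l2, a lipid-binding protein gene that is no part of the translocon, held 5 and 12 reads and was 4.54-fold higher (1.49 to 16.4).

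Tethering complexes catch vesicles before fusion, and their 19 genes had 4 members at least 2-fold higher and 2 lower. In the exocyst, which tethers vesicles at the plasma membrane, Exoc7 was 3.78-fold higher on 9 and 18 reads (1.61 to 9.56). Exoc1 held 9 reads in WT against 1 in tg, a ratio too loosely bounded to be told from equality (4.76-fold lower, 0.659 to 209). Exoc6b held 9 and 2 reads, Exoc5 43 and 25 and Exoc2 41 and 17, and all 3 intervals include equality. TRAPP, the exchange complex for Rab1 and Rab11, had 3 of 10 genes at least 2-fold higher and 0 lower. Over all genes these shares were 16.5% and 15.8%, and a count over 10 genes describes single genes. Trappc6a was 2.16-fold higher on 21 and 24 reads (1.15 to 4.08) and Trappc10 2.97-fold on 7 and 11 (1.05 to 9.04). Trappc3 held 8 and 10 reads, and its interval includes equality. Trappc5 held 60 and 28 reads, a log2 ratio of -0.18.

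SNARE genes differed most among the VAMPs. Vamp3, the vesicle SNARE of recycling endosomes (chromosome 4, 151047300 to 151057963), held 27 reads in WT against 0 in tg. It was 4.76-fold lower against the floor, and its interval starts at 3.61-fold lower. Both counts also occur among the probes of its neighbour Camta1, so this probe may be shared and may not report Vamp3 alone. Vamp5 and Vamp8, which lie next to each other on chromosome 6, were both higher. Vamp5 held 7 and 27 reads on its single probe (7.30-fold, 3.10 to 19.8). Vamp8, the SNARE of granule secretion in platelets and mast cells, held 6, 7 and 59 reads in WT and 10, 22 and 44 in tg. By summed reads it was 2.0-fold higher (1.43 to 2.80), against a deposited log2 ratio of 1.57. Vamp2 held 52 and 26 reads, Vamp4 22 and 15, and the 3 probes of Vamp1 18, 23 and 43 reads in WT and 5, 5 and 27 in tg. Each of these 3 intervals includes equality.

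Of 11 syntaxin genes, whose proteins sit mostly on the target membrane, 3 were at least 2-fold higher and 0 lower (all genes 16.5% and 15.8%). Stx8, of late endosomes, held 9 and 18 reads (3.78-fold higher, 1.61 to 9.56). Stx2, of the plasma membrane, held 22 and 28 (2.41-fold, 1.33 to 4.42), with probe counts of 2 and 20 in WT and 14 and 14 in tg. Stx11, needed for the release of cytotoxic granules, and Stx17, of autophagosomes, each held 13 and 11 reads, and Stx16 held 50 and 19. The Sec22 genes, SNAREs of the ER and Golgi, were led by Sec22c with 18 and 4 reads, and Sec22b held 30 and 20. None of these intervals from Stx11 on excludes equality.

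Vps genes, named after yeast mutants in vacuolar protein sorting, had 4 of 27 members at least 2-fold higher and 2 lower, and an SD of the log2 ratios of 0.94 against 1.22 over all members. The translocon group (0.94), the tethers (0.98) and the coats and adaptors (0.98) had a similar SD. Retromer, which returns receptors from endosomes to the Golgi, was near equality: Vps35 held 54 and 29 reads (ratio 1.02, 0.624 to 1.62). Vps26a held 30 and 12 and Vps26b 36 and 16. Of the 8 ESCRT genes among the members, whose proteins bud vesicles into endosomes, 0 were higher and 1 was lower by 2-fold. This was Vps28, on 9 and 2 reads, and none of the 8 intervals excludes equality. Among ESCRT genes of the second list, Stam was 1.65-fold lower on 153 and 49 reads (1.19 to 2.33). The intervals of Hgs, Stam2, Tsg101 and the Chmp genes there include equality. HOPS and CORVET, the tethers of lysosomes and endosomes, had Vps8 as the 1 higher gene (2.21-fold on 18 and 21 reads, 1.12 to 4.39). Its probes held 0 and 18 reads in WT and 9 and 12 in tg. Vps18, of both complexes, held 27 and 6 reads, and its interval includes equality.

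GARP, the tether of vesicles arriving at the trans-Golgi, again held opposite members. Vps54 was 1.74-fold lower on 132 and 40 reads (1.22 to 2.55). Vps53 was 2.27-fold higher on 15 and 18 (1.08 to 4.84), with the values of its neighbour Fam57a, and Vps52 held 63 and 48, as did its neighbour Rps18. The 4 VPS13 genes, which encode lipid transfer proteins at membrane contact sites, all had higher values in tg, with log2 ratios of 0.81 to 1.92. Vps13a was 3.78-fold higher on 6 and 12 reads (1.31 to 12.3) and Vps13c 2.46-fold on 20 and 26 (1.32 to 4.65). Vps13b and Vps13d held 75 and 50, and 34 and 24 reads, and their intervals include equality.

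Sorting nexins bend or bind endosomal membranes, and of 24 gene models 4 were at least 2-fold higher and 4 lower. Snx6, a retromer-associated nexin gene, was 3.40-fold lower on 45 and 7 reads (1.52 to 8.93), and Snx32, which encodes its closest paralogue, 4.41-fold higher on 3 and 7 (1.01 to 26.4). Their partners Snx1, Snx2 and Snx5 held 21 and 13, 41 and 18, and 140 and 54 reads. Snx5 had a deposited log2 ratio of 0.19 and a summed one of -0.45, with probe counts of 5 and 135 in WT and 5 and 49 in tg. Snx20, which binds the selectin ligand PSGL-1 in leukocytes, was 3.17-fold lower on 30 and 5 reads (1.22 to 10.5). Snx30 was 4.23-fold lower on 24 and 3 (1.28 to 21.9), and Snx9, of endocytosis, 1.76-fold lower on 60 and 18 (1.03 to 3.17). Its relative Snx18 held 18 and 3, and the interval includes equality. Higher in tg were Snx15, on 11 and 20 reads (3.44-fold, 1.57 to 7.95), and the Snx29 model with more probes, on 19 and 25 over 3 probes (2.49-fold, 1.32 to 4.78). The other Snx29 model held 4 and 5 reads, while Snx13 (68 and 34) and Snx4 (39 and 32), both of endosomes, had intervals that include equality.

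**Figure D4:**
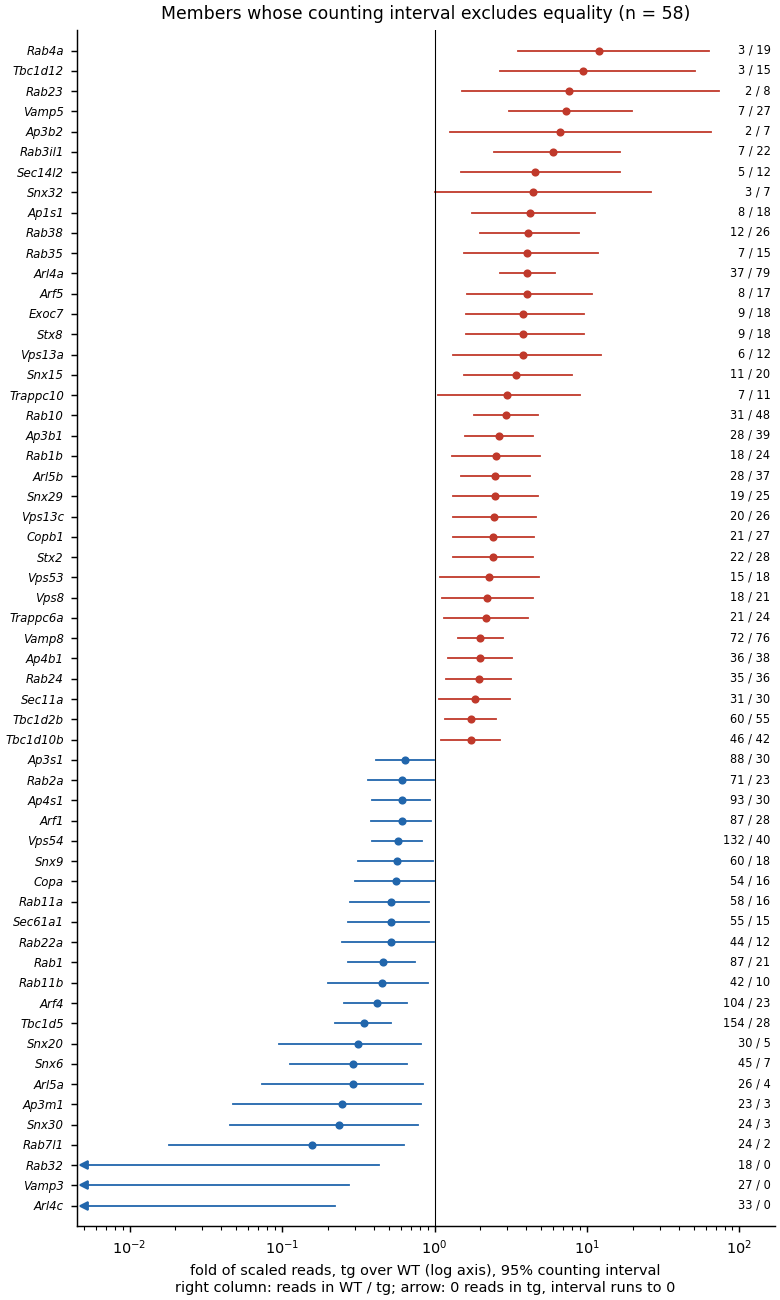
Fold of scaled reads, tg over WT, on a log axis with 95% counting intervals (lines) for the 58 members whose interval excludes equality, with reads in WT and tg at the right. The 35 red genes run from Tbc1d10b (1.73-fold) to Rab4a (12-fold), and arrows mark Arl4c, Vamp3 and Rab32, which had 0 reads in tg.

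The shares beyond 2-fold differed with the number of probes. Of the 161 members with 1 probe, 28 were at least 2-fold higher (17.4%) and 24 lower (14.9%), with a median log2 ratio of -0.04. For all 1-probe genes these shares were 14.3% and 16.1%. Of the 56 members with 2 or more probes, 16 (28.6%) were higher and 3 (5.36%) lower by this rule, and the median was 0.65, against 23.9%, 15.1% and 0.23 for all such genes. In some of them a WT probe with few reads carried the difference. Rab30, of the Golgi, held 2 and 45 reads in WT and 13 and 14 in tg, a deposited log2 ratio of 1.43 but a summed one of 0.12. Tbc1d9b went the other way, with 6, 16 and 67 reads in WT and 1, 3 and 33 in tg, a log2 ratio of -1.09 and a summed one of -0.35. By summed reads, 39 of the 44 higher and 26 of the 27 lower members were still at least 2-fold apart. Besides Rab30 and Tbc1d9b, those that were not are Vamp8, Tbc1d10b, Tbc1d2b and Rab3gap2. All probes of 23 members are shared with a neighbouring gene, so that their acetylation cannot be assigned to the trafficking gene alone. Among them are Rab40c (with Gm16278), Rab11b (Gm17251), Vps35 (Orc6), Vps26b (Ncapd3), Exoc2 (Gm5447) and Exoc5 (Mudeng), whose reads are given above, and Copb2 (4930579K19Rik), with 21 and 14 reads. Those not described so far are Arl2 (34 and 21 reads, with Batf2), Rab11fip2 (34 and 20, with Gm4219), Vps16 (45 and 28, with Fam113a), Vps25 (18 and 15, with Ramp2) and Trappc4 (16 and 14, with Rps25). All 5 intervals include equality. For 26 members the counts also allow a probe shared with a neighbour that has another number of probes, which could not be settled without probe positions. Among these are Vamp3 (with Camta1), Arf5 (Gcc1), Arl5b (Nsun6), Rab30 (4632427E13Rik) and Snx5 (8430406I07Rik).

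**Figure D5:**
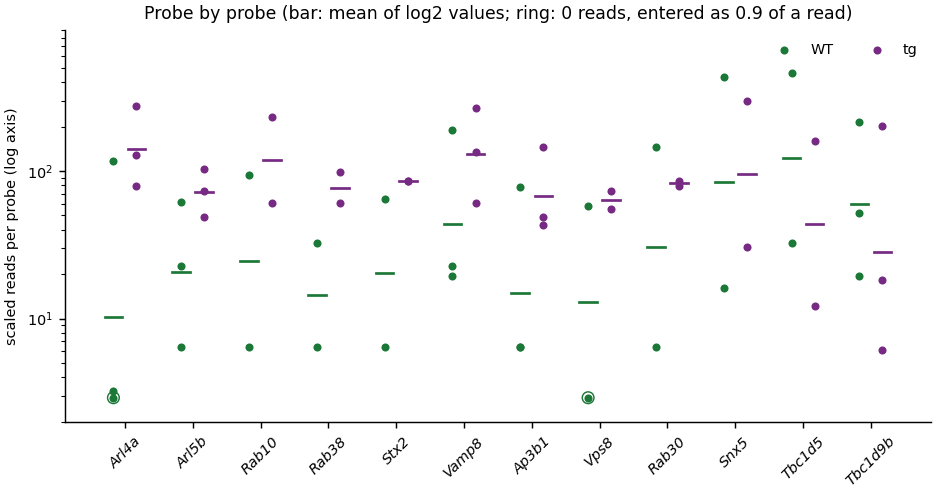
Scaled reads of every probe (dots, log axis) for 12 members with 2 or more probes, in WT (green) and tg (purple), with bars at the mean of the log2 values and rings at probes with 0 reads. In Rab30 and Stx2 the lowest WT dot lies far under both tg dots, in Tbc1d5 the higher and the lower tg dot lie under the higher and the lower WT dot, and in Snx5 the highest dots order the other way from the bars.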

How the data were processed

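H3K9ac ChIP-seq libraries were made from 1% formaldehyde-fixed marrow sonicated for 20 min after red cell lysis, per the labels' protocols. Per the submitters' processing notes, CASAVA 1.8.2, BWA, SAMtools and FastQC were used, with mm10 and GRCm38 as builds. Not given in the sources used here are probe placement, probe length and duplicate handling. The authors' deposited values are log2 means and standard deviations over a gene's probes, for 2 libraries matched by library code, beside the number of probes. For the 7423 genes with 1 probe, 100% of linear values were whole multiples of 1 step (3.23 in WT, 6.11 in tg) within 0.01 of a read, with 0 reads entered as 0.9. Reads per probe were solved from mean and SD for up to 5 probes (9530 genes, 99.1%), a procedure tested on simulated data. Tables list only genes with reads: each 1-probe gene had at least 9 in both libraries together.

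With 1 library per group no test was made. Folds are summed reads scaled by the totals, with exact conditional Clopper-Pearson 95% intervals (scipy 1.17.1, pandas 2.3.3, Python 3.11.15). Because the reads carry no molecular identifiers, they may repeat a molecule, so intervals and floors cover counting error only. A fold against 0 reads uses a floor of 3 reads. It takes the count of the other library as exact, so the interval can start closer to equality. Genes within 100000 bp with identical values were taken to share probes. Named were members whose interval excludes equality or with 0 reads in a library, the best covered and most different of each class, and those with shared probes. Other members named were chosen after their values were seen. Some members' values are not reported here. Members, lists and alternatives were chosen with earlier results of these data known. Alternatives were summed reads, a level minimum, probe number, merged neighbours, pseudocounts, centring and the counting interval as call rule.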

Additional observations from a re-analysis of the deposited data

How the results depend on the processing

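The 2-fold counts of 44 higher and 27 lower members stayed within 1.5 times under summed reads, both pseudocounts, centring and the counting interval (34 to 42 higher, 19 to 29 lower). Merging identical neighbours among the members left all 217 in place, so it could not change the counts and is no check of them. The counts changed where fewer genes were taken. Members at or above the median level (115 of 217) gave 17 higher (14.8%, all such genes 10.2%) and 7 lower (6.09%, all such genes 10.8%), 1-probe members 28 higher, and members with 2 or more probes, an alternative added after seeing the data, 16 higher and 3 lower. The median log2 ratio of 0.14 became -0.042 with 1-probe members and 0.65 with 2 or more probes; the cause was not tested. By summed reads, 1 instead of 2 Rab effector and regulator genes and 2 instead of 4 Tbc1d genes were at least 2-fold higher. Under summed reads, both pseudocounts and centring, 1 of 111 named members changed sign, Vps35 (0.023 to -0.022 when centred). Snx5 (0.19 to -0.45) and Rab27a (0.16 to -0.35), outside those 111, changed sign by summed reads. Leaving out the 23 members with shared probes gave 42 higher and 25 lower, and leaving out the 3 with 0 reads gave 44 and 24.

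No paired analysis was possible because each genotype is 1 library. Low read counts limit the rest: the median 1-probe gene rests on 22 reads in WT against 11 in tg, and 159 members have an interval that includes equality.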
